A study of Mus musculus with 9 samples.

Results

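S100 proteins are small calcium-binding proteins that work inside cells and, once released, as alarmins, signals that alert the immune system to damage. The genes S100a4, S100a6, S100a8, S100a9, S100a10 and S100a11 were grouped here with Lcn2, which encodes the iron-carrier-binding protein lipocalin 2, and Hp, which encodes haptoglobin, the plasma protein that binds free haemoglobin. These 8 genes were chosen by their symbols, and all 8 were among the 55367 symbols counted in each library and among the 13707 genes with enough counts to be tested. Monocytes of adult mice were kept for 4 h with control buffer, with platelets of adult mice or with P7 platelets, P7 being the usual abbreviation of postnatal day 7, and were washed before mRNA was taken and sequenced. Each of the 3 groups holds 3 libraries, 9 in all. The labels give no strain, genotype, sex or exact age, and nothing in them says that replicates came from separate cultures or animals. The p-values therefore reflect the spread among these libraries, which may be technical.

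S100A8 and S100A9 pair as calprotectin, which withholds zinc and manganese from microbes, makes up much of the cytosolic protein of neutrophils, and signals through TLR4 and RAGE. Classical monocytes hold it too. S100A10 holds annexin A2 at the plasma membrane, S100A11 binds annexin A1, S100A4 binds the heavy chain of non-muscle myosin IIA, and S100A6 binds several annexins. Lipocalin 2 takes iron-loaded siderophores from bacteria, and haptoglobin hands haemoglobin to the macrophage receptor CD163. Lcn2 and Hp are acute-phase genes induced in the liver and in myeloid cells by inflammation, with C/EBP, STAT3 and NF-kB factors among their known regulators.

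Total counts per library ranged from 29687341 to 37065564, and the least abundant of these genes, Lcn2, had 552 to 1068 counts in a library. Levels are normalised CPM, read counts scaled to a common library size and composition, as means ± SD over n = 3 libraries. A gene counted as called when edgeR's quasi-likelihood test gave it a Benjamini-Hochberg adjusted p under 0.05 over all 13707 genes, and log2 fold changes are given ± SE. The 10 monocyte markers summed to 23545 to 33321 CPM in the 9 libraries, while 8 T and NK cell markers had at most 37 counts in a library. The 18 neutrophil markers summed to 584 to 623 CPM in control, 563 to 785 with adult platelets and 507 to 563 with P7 platelets, with Ly6g, their most specific member, at 3 to 21 counts. The upper end was adult platelet replicate 3, which stood apart: Ngp, a neutrophil granule gene, was at 103 CPM there and at 23.7 to 52.3 CPM in the other 8 libraries. Ly6g, Cxcr2, Retnlg, Mmp9, Camp, Ltf, Elane, Mpo and Padi4 were also highest in that library, Ly6g at its 21 counts. Not every marker was raised there: Csf3r was at 210 CPM, within 193 to 251 CPM in the other 8 libraries, and Cd177 at 175 CPM, within 108 to 189 CPM. Mmp8, Il1r2 and the Stfa genes were not highest there either. More B cell transcripts were held by replicate 1 of every group and by adult platelet replicate 3 than by the other 5 libraries. Transcripts of 13 platelet genes made up 0.000753 to 0.00151% of counts in control, 0.0737 to 0.136% with adult platelets and 0.121 to 0.142% with P7 platelets. Globin and other erythroid transcripts (5 genes) made up 0.000881 to 0.00117%, 0.0481 to 0.180% and 4.36 to 5.50%. In such bulk libraries fewer cells of a type and less RNA per cell cannot be told apart, and the part of carried-over RNA in the values below was not tested unless stated.

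On the reference annotation (GENCODE M21, GRCm38), the 6 S100 genes lie on chromosome 3 in 2 clusters. The first holds S100a4 (90603771 to 90606045), S100a6 (90612882 to 90624181), S100a8 (90668978 to 90670035) and, on the opposite strand, S100a9 (90692632 to 90695721). S100a8 and S100a9 are 22596 bases apart. The second, 2824766 bases further on, holds S100a11 (93520488 to 93526287) and S100a10 (93555080 to 93564643). Lcn2 lies on chromosome 2 (32384633 to 32388252) and Hp on chromosome 8 (109575128 to 109579172), both on the minus strand. S100a4 overlaps a gene model on its own strand, Gm42674, so reads can be shared between them. The other 7 overlap no annotated gene.

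The sequences before the starts of S100a8 and S100a9, the pair whose proteins bind each other, and of S100a11, the S100 gene with the largest difference between P7 and adult platelets, are shown. They come from RefSeq (GRCm38.p6), which matched 6 of the 8 genes. They are written 5′ to 3′ on the strand of the gene, from 250 bases before the RefSeq start, and stop where an annotated exon begins. S100a8 is chr3:90668821-90668977 (plus strand, 157 bases), S100a9 chr3:90695722-90695971 (minus strand, 250 bases) and S100a11 chr3:93520246-93520487 (plus strand, 242 bases). Capitals mark matches to any of 7 motifs, searched on both strands.
S100a8: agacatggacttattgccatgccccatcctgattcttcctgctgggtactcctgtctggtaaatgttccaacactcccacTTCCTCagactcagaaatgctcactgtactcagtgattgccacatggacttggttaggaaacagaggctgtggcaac
S100a9: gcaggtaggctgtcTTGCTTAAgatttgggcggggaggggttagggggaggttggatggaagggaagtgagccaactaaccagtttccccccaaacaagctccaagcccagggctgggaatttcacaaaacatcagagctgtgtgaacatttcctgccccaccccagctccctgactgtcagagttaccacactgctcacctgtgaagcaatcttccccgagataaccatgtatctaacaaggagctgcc
S100a11: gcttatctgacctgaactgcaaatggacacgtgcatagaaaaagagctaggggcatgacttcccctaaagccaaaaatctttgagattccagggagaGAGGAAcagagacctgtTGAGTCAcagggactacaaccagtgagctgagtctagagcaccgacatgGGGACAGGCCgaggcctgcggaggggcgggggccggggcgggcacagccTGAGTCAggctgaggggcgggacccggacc
The match in S100a8, TTCCTC, is the minus strand form of the PU.1 core GAGGAA and begins at -170, counted from the RefSeq start. In S100a9 it is a C/EBP core (TTGCNNAA) that begins at -236. S100a11 holds the PU.1 core at -153, an NF-kB motif (GGGA, 4 bases of any kind, then CC) at -87 and the AP-1 motif TGANTCA at both -136 and -38. These matches do not overlap one another. Of 32851 promoter windows of 250 bases in the same table, 23.3% held the PU.1 core, 9.56% the C/EBP core, 17.6% the NF-kB motif and 6.75% the AP-1 motif. The other motifs searched were the TATA box TATAAA (12.4%), the STAT motif TTCNNNGAA (7.02%) and the interferon response motif, GAAA repeated with 2 bases of any kind between (2.98%), and none of these 3 matched in the printed stretches. The rest of the S100a8 window lies in an annotated exon and is not printed, and it held TATAAA at -30 and a second PU.1 core at -36. The shares are for full windows, so they do not compare directly with the shorter printed stretches. A match is a description of letters and not a binding site.

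Per kilobase of transcript, a scale on which genes can be compared, S100a6 was the highest of the 8 in control at 786 ± 72.3 CPM per kb. S100a10 followed at 628 ± 46.3, S100a11 at 516 ± 36.7, Hp at 333 ± 33.0 and S100a4 at 261 ± 16.8. S100a9 (116 ± 25.4) and S100a8 (103 ± 5.58) were lower and overlapped each other, and Lcn2 was lowest at 18.6 ± 3.03. With adult platelets the order of means was the same, but S100a6 and S100a10 overlapped, as did Hp and S100a4. With P7 platelets Hp moved to the top, at 1290 ± 215 CPM per kb, above S100a6 at 792 ± 85.6 and S100a10 at 721 ± 35.9, and these latter overlapped. The order of the other means differed from control only in the exchange of S100a8 and S100a9, which overlapped.

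**Figure D1:**
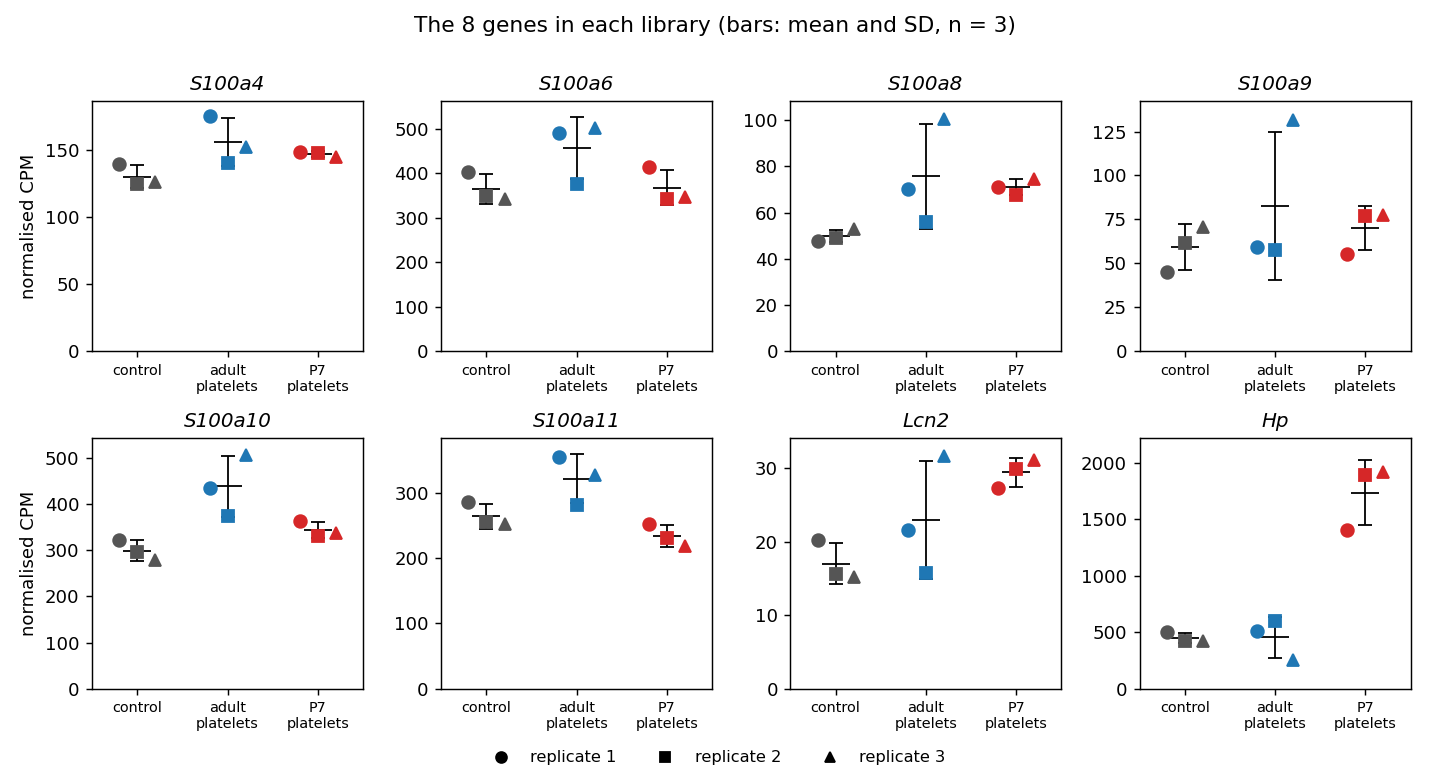
Normalised CPM of each of the 8 genes by group, 1 panel a gene with a linear axis from 0. Symbols are the replicates and bars the mean and SD of 3 libraries. The 3 P7 platelet libraries of Hp sit between 1401 and 1915, above the other 6, which lie between 251 and 599.

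Adult platelets were set against control to ask how monocytes respond to platelets of adult mice. S100a10, S100a8 and S100a4 rose, and none of the 8 fell, either past the adjusted threshold or at an unadjusted p under 0.05, in edgeR or in DESeq2. These are 3 of 8 (37.5%), where 26.4% of all 13707 genes were called and 14.3% of all were called higher. The median log2 fold change of the 8 genes was 0.38, against -0.00 for all genes tested. The groups did not overlap for these 3 genes, all with adult platelets on the higher side, where 42.7% of all genes did not overlap and 21.8% of all did so on that side.

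With P7 platelets, compared with control to ask the same of platelets of young mice, Hp, Lcn2 and S100a8 rose. None of the 8 was called lower in DESeq2's test or in edgeR's, where none was lower at an unadjusted p under 0.05 either, but S100a11 was called lower with upper-quartile scaling, a replicate number as a block or a term for the B cell transcript Igkc. With the replicate number as a block, 4 of the 8 were called higher and 1 lower, S100a4 and S100a11 being added. The count without the block, 3 of 8, stands beside 59.2% called among all genes and 29.9% called higher, and the 37.5% is below the share at large. Their median log2 fold change was 0.22, against -0.01 for all genes. The P7 platelet libraries lay above control without overlap for 5 of the 8 (34.5% of all genes, and 69.1% on either side), which besides the called genes were S100a4 and S100a10.

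P7 and adult platelets were compared directly to ask whether the age of the platelet donor matters. These groups also differed in erythroid transcripts, at 4.36 to 5.50% of counts with P7 and 0.0481 to 0.180% with adult platelets. Donor age was not tested apart from this difference. Hp was higher with P7 platelets, and S100a10 and S100a11 were lower, again 3 of 8 beside 39.6% called among all genes (19.7% higher, 19.8% lower). The median was -0.16, against -0.02 for all genes, and of the 8 genes these 3 had groups that did not overlap (49.0% of all genes, 24.2% with P7 platelets higher and 24.8% with them lower). Both comparisons with control use the same control libraries, and both comparisons with adult platelets the same adult platelet libraries, so they are not independent.

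**Figure D2:**
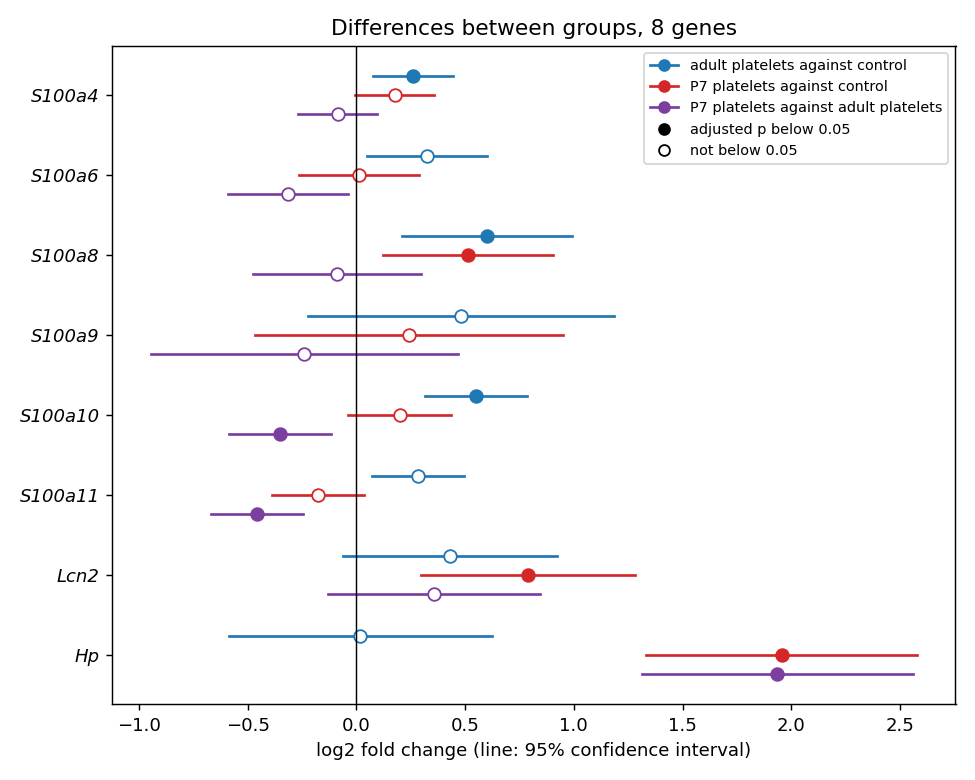
Log2 fold changes with 95% confidence intervals of the 8 genes in the 3 comparisons, from edgeR's quasi-likelihood fit. The Hp intervals of both comparisons of P7 platelets lie above 1.3, while Hp with adult platelets against control spans 0.

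Among the annexin and myosin binders, S100a10, which tethers annexin A2 to the membrane, read 323, 297 and 279 CPM in control replicates 1, 2 and 3. It read 436, 374 and 507 CPM with adult platelets and 363, 331 and 337 CPM with P7 platelets. Every adult platelet library was above every control and every P7 platelet library, and every P7 platelet library was above every control. S100a10 rose from 300 ± 22.1 to 439 ± 66.3 CPM with adult platelets (log2 fold change 0.55 ± 0.10, adjusted p = 0.00521). With P7 platelets, at 344 ± 17.1 CPM, the difference from control was 0.20 ± 0.10 and was not called (adjusted p = 0.129). Between P7 and adult platelets it was -0.35 ± 0.10 (adjusted p = 0.0241). Leaving out adult platelet replicate 3 ended that call (-0.24, adjusted p = 0.0716), as did leaving out P7 platelet replicate 2 or 3 (adjusted p = 0.0842 and adjusted p = 0.0772), while the rise with adult platelets was called in all 9 fits that each left out 1 library.

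S100a11, an annexin A1 binder that is the genomic neighbour of S100a10, read 285, 255 and 251 CPM in control, 355, 281 and 328 CPM with adult platelets and 252, 229.8 and 219 CPM with P7 platelets. The P7 platelet libraries were all below the adult platelet libraries, with P7 platelet replicate 1 inside the control range and replicates 2 and 3 below it. Means were 264 ± 18.7, 321 ± 37.5 and 233 ± 16.8 CPM. S100a11 was lower with P7 than with adult platelets by a log2 fold change of -0.46 ± 0.09 (adjusted p = 0.0043), a call that held without any single library. Against control, neither the 0.28 ± 0.09 with adult platelets (adjusted p = 0.0517) nor the -0.18 ± 0.09 with P7 platelets (adjusted p = 0.137) was called. Both lay near the threshold: the first was called in 5 of 11 other settings, among them DESeq2's test (adjusted p = 0.0216), and in 3 of the 9 fits without 1 library, those without control replicate 1, adult platelet replicate 2 or P7 platelet replicate 1. The second was called in 3 of the 11, with upper-quartile scaling (-0.28, adjusted p = 0.0354), the replicate block (-0.17, adjusted p = 0.0383) and the Igkc term (adjusted p = 0.00411).

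S100a4, whose protein binds non-muscle myosin IIA and which marks motile cells, read 139.5, 125 and 126 CPM in control, 175, 140.0 and 152 CPM with adult platelets and 148, 148 and 144 CPM with P7 platelets. Both platelet groups lay above control, adult platelet replicate 2 by a narrow margin. S100a4 rose with adult platelets from 129.9 ± 8.35 to 156 ± 17.8 CPM (0.26 ± 0.08, adjusted p = 0.0412). The call lay near the threshold: 7 of the 9 fits without 1 library lost it (adjusted p up to 0.14), the exceptions being those without control replicate 1 or adult platelet replicate 2, and it was lost with upper-quartile scaling (adjusted p = 0.0743). With P7 platelets the mean was 147 ± 2.03 CPM and the difference from control 0.18 ± 0.08 (adjusted p = 0.0885), which was called with the replicate block (adjusted p = 0.0318).

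S100a6, the calcyclin gene, was the most abundant S100 transcript per length and was called in no comparison of the main fit. It read 403, 348 and 343 CPM in control, 491, 376 and 503 CPM with adult platelets and 413, 342 and 347 CPM with P7 platelets. In each group 1 or 2 libraries were high and the groups overlapped. The log2 fold change was 0.32 ± 0.12 with adult platelets (adjusted p = 0.0806; 95% interval 0.05 to 0.60), 0.01 ± 0.12 with P7 platelets (adjusted p = 0.942; -0.26 to 0.29) and -0.31 ± 0.12 between P7 and adult platelets (adjusted p = 0.0703; -0.59 to -0.04). Without adult platelet replicate 2, S100a6 was called higher with adult platelets than in control (0.45, adjusted p = 0.0134) and lower with P7 than with adult platelets (-0.43, adjusted p = 0.00892). The latter was also called without P7 platelet replicate 1 (adjusted p = 0.0355). Of 11 other settings, 4 called S100a6 higher with adult platelets than in control, and 5 called it lower with P7 than with adult platelets.

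Of the calprotectin genes, S100a8 read 47.8, 49.0 and 53.0 CPM in control, 70.4, 56.0 and 101 CPM with adult platelets and 71.2, 67.7 and 74.5 CPM with P7 platelets. All 6 libraries with platelets were above the 3 controls, and the adult platelet libraries were spread wider than the P7 platelet libraries, which they enclosed. S100a8 rose from 49.9 ± 2.71 to 75.7 ± 22.8 CPM with adult platelets (0.60 ± 0.17, adjusted p = 0.0318) and to 71.1 ± 3.41 CPM with P7 platelets (0.51 ± 0.17, adjusted p = 0.0289). Between P7 and adult platelets the difference was -0.09 ± 0.17 (adjusted p = 0.718), with a 95% interval from -0.48 to 0.30. Without adult platelet replicate 3, the library with the highest sum of neutrophil markers, the rise with adult platelets was 0.34 (adjusted p = 0.0353) and that with P7 platelets 0.51 (adjusted p = 0.00113).

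Both S100a8 calls were near the threshold in other fits. The call with adult platelets was lost without control replicate 1, 2 or 3 or adult platelet replicate 1 (adjusted p = 0.0522 to 0.0961). The call with P7 platelets was lost without control replicate 1 or 2 or any 1 of the 3 P7 platelet libraries (adjusted p = 0.0508 to 0.0794) and with upper-quartile scaling (adjusted p = 0.0708). The summed neutrophil markers, read beside it, were not higher with P7 platelets than in control: their share of counts was 0.0484% ± 0.00234 against 0.0649% ± 0.00119 (p = 0.1 in a two-sided exact permutation test, which with 3 against 3 libraries can go no lower, and 0.214 adjusted over 15 such tests of shares). Csf3r, Cd177 and Mmp8 held most of this sum, at 214, 160 and 94.2 of 584 CPM in control replicate 1. The granule genes Ngp, Camp and Ltf overlapped between P7 platelets and control and were not called, whereas Elane was called lower. The number of neutrophils was not tested.

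S100a9, which encodes the partner of S100A8, was called in no comparison. It read 45.2, 61.8 and 70.8 CPM in control, 59.3, 57.6 and 131 CPM with adult platelets and 55.4, 77.0 and 77.8 CPM with P7 platelets. The groups overlapped, and adult platelet replicate 3 stood far above the other 8 libraries. The log2 fold change was 0.48 ± 0.31 with adult platelets (adjusted p = 0.291; 95% interval -0.22 to 1.19) and 0.24 ± 0.31 with P7 platelets (adjusted p = 0.538; -0.47 to 0.95). Without adult platelet replicate 3 the first of these was -0.02 (adjusted p = 0.95).

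The ratio of S100a8 to S100a9 counts was 1.06, 0.793 and 0.748 in control, 1.19, 0.972 and 0.767 with adult platelets and 1.28, 0.880 and 0.958 with P7 platelets. It overlapped between the groups and was highest in replicate 1 of each. Over the 9 libraries, after group means were taken out, log2 levels of both genes had a Pearson r of 0.83. This was not particular to the pair: S100a8 had an r of 0.83 with Lcn2, 0.77 with S100a10 and -0.89 with Hp. Adult platelet replicate 3 was the highest of the 9 libraries for S100a8 and S100a9, and no r was taken without it. The libraries share their group and their preparation, so these values are a description.

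Lcn2 read 20.2, 15.7 and 15.2 CPM in control, 21.6, 15.8 and 31.7 CPM with adult platelets and 27.3, 29.9 and 31.2 CPM with P7 platelets. All P7 platelet libraries were above all controls, whereas adult platelet replicate 1 was just above the highest control, replicate 2 within the control range and replicate 3 just above the highest P7 platelet library. Lcn2 rose with P7 platelets from 17.0 ± 2.77 to 29.5 ± 1.97 CPM (0.79 ± 0.22, adjusted p = 0.0115), and the call held in each of the 9 fits without 1 library (0.71 to 0.93). With adult platelets, at 23.0 ± 8.04 CPM, the difference from control was 0.43 ± 0.22 (adjusted p = 0.177). It was 0.13 without adult platelet replicate 3 (adjusted p = 0.591) and was called without adult platelet replicate 2 (0.65, adjusted p = 0.0282). P7 and adult platelets differed by 0.36 ± 0.22 (adjusted p = 0.225), and without adult platelet replicate 3 by 0.66, which was called (adjusted p = 0.0148).

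Hp made the largest change of the 8 genes. It read 499, 421 and 423 CPM in control, 509.7, 599 and 251 CPM with adult platelets and 1401, 1889 and 1915 CPM with P7 platelets. The P7 platelet libraries were all above the other 6, and adult platelet replicate 3 was the lowest of all 9. Hp rose with P7 platelets from 447 ± 44.3 to 1735 ± 289 CPM, 3.88-fold (1.96 ± 0.28, adjusted p = 0.000253). It was 3.83-fold higher with P7 than with adult platelets (1.94 ± 0.28, adjusted p = 0.000728). Both calls held in each fit without 1 library, with log2 fold changes of 1.88 to 2.09 and 1.65 to 2.20. With adult platelets the mean was 453 ± 180.4 CPM and the difference from control 0.02 ± 0.27 (adjusted p = 0.968; 95% interval -0.58 to 0.62), and without adult platelet replicate 3 it was 0.31 (adjusted p = 0.157).

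Shares of counts from platelet and erythroid transcripts stand beside these Hp levels. P7 platelet replicate 1 had the lowest Hp level of its group and the highest platelet (0.142%) and erythroid (5.50%) shares. Adult platelet replicate 3 had the lowest Hp level and the highest platelet share (0.136%) of its group, with the lowest erythroid share (0.0481%). The erythroid share had a mean of 0.0973% ± 0.0718 with adult platelets and 4.92% ± 0.574 with P7 platelets. The part of these transcripts in the Hp levels was not tested.

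**Figure D3:**
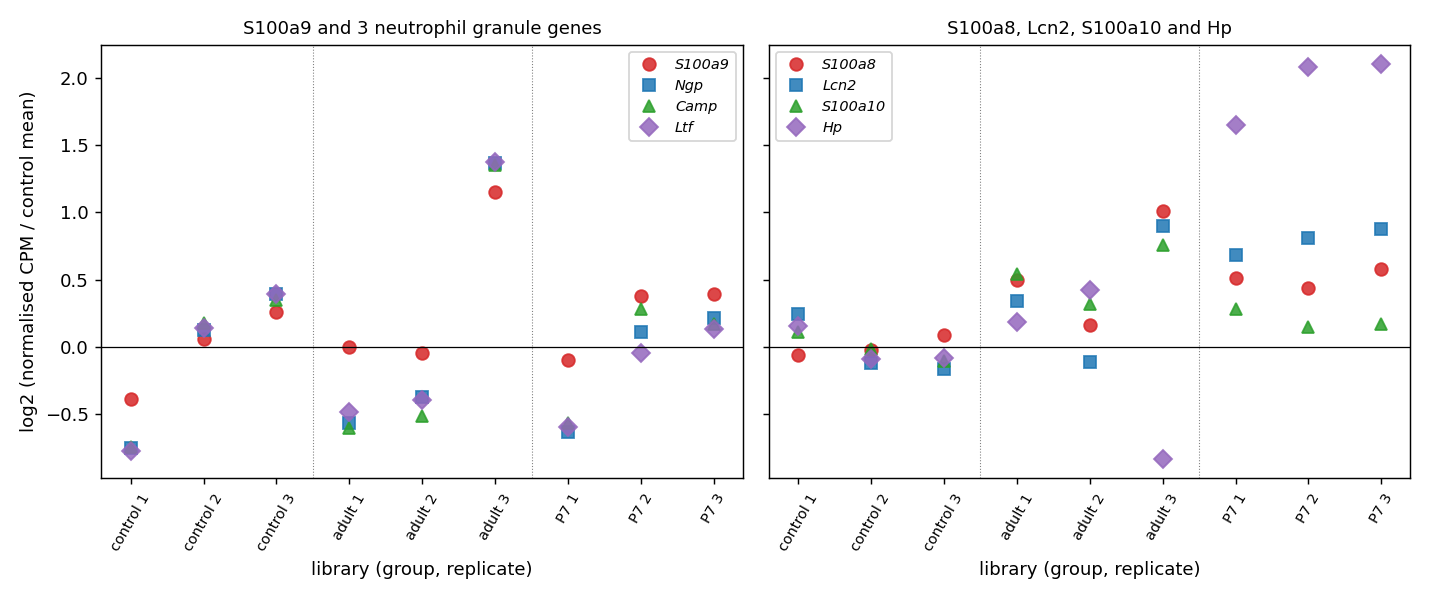
Log2 of normalised CPM over the mean of the control libraries in each of the 9 libraries, for S100a9 with 3 neutrophil granule genes (left) and for S100a8, Lcn2, S100a10 and Hp (right). Adult platelet replicate 3 is the highest of the 9 libraries for all genes shown but Hp, which is lowest there and high in the 3 P7 platelet libraries.

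Genes whose pattern was most like each of the 8 were sought among 9252 genes with a mean log2 CPM of at least 2, by Pearson's r of log2 CPM over the 9 libraries. These libraries fall into 3 groups, so an r across them mixes differences between groups with those within groups. For S100a9 the leading genes were the neutrophil granule genes Ngp (r = 0.948), Camp (0.946) and Ltf (0.94), and with group means taken out their r was 0.991 to 0.994. With group means left in, r was 0.816 for Ngp, 0.836 for Camp and 0.733 for Ltf without 2 libraries. These were the 2 farthest from the median of Ngp, Camp or Ltf itself, chosen for each gene. None of the 3 leading genes of another member was a neutrophil granule gene. For S100a8 they were Cttnbp2nl (0.969), Pld3 (0.962) and Vegfa (0.955), and for Hp Tmem38b (0.996), Rasa4 (0.995) and Clec12a (0.993), the last an inhibitory receptor of myeloid cells. S100a10 was most like Bin1 (0.989), Smn1 (0.982) and Lmna (0.969), and S100a11 most like Gnai2 (0.982), Aprt (0.978) and Stmn1 (0.973). The leading gene was Eif2b1 for Lcn2 (0.945), Ccdc12 for S100a4 (0.984) and Kif1c for S100a6 (0.967).

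Of 11 other S100 family genes, 2 had enough counts to be tested and the other 9 had at most 8 counts in any library. S100a1, a calcium sensor best known from muscle, rose from 18.9 ± 1.40 CPM to 35.4 ± 5.46 with adult platelets (0.90 ± 0.12, adjusted p = 0.00106) and to 41.8 ± 5.11 with P7 platelets (1.14 ± 0.12, adjusted p = 5.06e-05). S100a13 rose with adult platelets by 0.30 ± 0.09 (adjusted p = 0.0339), a call lost in 6 of 9 fits without 1 library, and differed from control by 0.18 ± 0.09 with P7 platelets (adjusted p = 0.114, and 0.0404 with the replicate block). Neither differed between P7 and adult platelets past the threshold.

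Of 8 genes for intracellular partners of S100 proteins, 3 rose with adult platelets and none fell, either past the threshold or at an unadjusted p under 0.05, while with P7 platelets 3 rose and 2 fell. These are 37.5% and 62.5% of the 8, beside 26.4% and 59.2% of all genes. Anxa2, the partner of S100a10, rose from 501 ± 49.5 to 817 ± 127 CPM with adult platelets (0.71 ± 0.11, adjusted p = 0.00202) and to 757 ± 25.8 CPM with P7 platelets (0.60 ± 0.11, adjusted p = 0.00125). Myh9, the heavy chain bound by S100A4, rose in both (0.39 ± 0.06 and 0.29 ± 0.06). Ahnak, a large scaffold that binds the S100A10 and annexin A2 complex, fell with P7 platelets from 1922 ± 280.5 to 1072 ± 72.8 CPM (-0.84 ± 0.15, adjusted p = 0.00103), and was not called with adult platelets (-0.14 ± 0.15, adjusted p = 0.54). The other faller was Anxa6, named after its values were seen (-0.34 ± 0.08, adjusted p = 0.00639). Anxa5 rose with P7 platelets by 0.26 ± 0.04, and Anxa11 with adult platelets by 0.25 ± 0.08 (adjusted p = 0.0438), a call lost in 7 of the 9 fits without 1 library. Between P7 and adult platelets Anxa5 was called higher with P7 platelets (0.17 ± 0.04). That call was lost with upper-quartile scaling (adjusted p = 0.107), no filter (adjusted p = 0.128) or only the 2 groups compared (adjusted p = 0.0545). It was also lost with glmTreat, which asks for a fold above 1.2. Ahnak (-0.71 ± 0.15), Anxa6 (-0.26 ± 0.08) and Anxa11 (-0.26 ± 0.08) were called lower. Of these, Anxa6 lost its call in 6 of the 9 fits without 1 library and Anxa11 in 3 (without adult platelet replicate 3 or P7 platelet replicate 2 or 3). Anxa1, the partner of S100A11, was not called in any comparison, at 0.39 ± 0.17 with adult platelets (adjusted p = 0.127) and 0.07 ± 0.17 with P7 platelets (adjusted p = 0.761).

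Of 9 genes for receptors and co-receptors of the secreted proteins, 8 were tested. With adult platelets 2 rose and 1 fell, and with P7 platelets 3 rose and 3 fell, so 37.5% and 75% were called, beside 26.4% and 59.2% of all genes. Tlr4, the receptor of calprotectin and of endotoxin, fell with P7 platelets from 79.2 ± 15.2 to 23.2 ± 5.07 CPM (-1.77 ± 0.23, adjusted p = 0.000134). Its co-receptor gene Cd14 rose from 834 ± 90.8 to 1653 ± 244 CPM (0.99 ± 0.11, adjusted p = 6.73e-05). Ager, which encodes RAGE, fell from 5.97 ± 0.414 to 4.08 ± 0.467 CPM with adult platelets (-0.55 ± 0.12, adjusted p = 0.00987) and to 3.01 ± 0.232 CPM with P7 platelets (-0.99 ± 0.12, adjusted p = 0.000115). Bsg, which encodes basigin, a receptor of S100A9, rose in both (0.22 ± 0.05 and 0.48 ± 0.05), the first call being lost without control replicate 2 or 3 (adjusted p = 0.069 and adjusted p = 0.0673). Cd36, a scavenger receptor gene named after its values were seen, rose with P7 platelets by 0.68 ± 0.17 (adjusted p = 0.00755). Ly96, the TLR4 partner MD-2, was called higher with adult platelets (0.29 ± 0.09, adjusted p = 0.0333) and not with P7 platelets (0.22 ± 0.09, adjusted p = 0.0543, and 0.0498 with the replicate block), and the adult platelet call was lost in 5 of 9 fits without 1 library. Slc22a17, a lipocalin 2 receptor gene with a mean of at most 0.399 CPM in any group, fell with P7 platelets (-1.31 ± 0.36, adjusted p = 0.012), a call lost without control replicate 3 (adjusted p = 0.0607). Its P7 platelet libraries held 3 to 6 counts, under the filter's minimum count of 10, so it was tested only through the other libraries. The direction of this call, 1 of the 3 falls with P7 platelets, was therefore fixed beforehand. Between P7 and adult platelets Cd14 (1.13 ± 0.11), Bsg (0.26 ± 0.05) and Cd36 (0.55 ± 0.17) were called higher with P7 platelets, and Tlr4 (-1.26 ± 0.23) and Ager (-0.44 ± 0.12) were called lower. Cd36 lost this call in 5 of the 9 fits without 1 library, and Ager lost it without adult platelet replicate 1 or P7 platelet replicate 2 or 3.

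Of 10 regulators known to act on these genes, 7 rose and 2 fell with P7 platelets, 1 rose with adult platelets, and 7 were higher and 1 lower with P7 than with adult platelets. The shares called were 90%, 10% and 80%, beside 59.2%, 26.4% and 39.6% of all genes. Cebpb and Cebpd, factors of the acute-phase response that act on Hp and Lcn2, rose with P7 platelets by 0.92 ± 0.11 and 0.81 ± 0.08 (adjusted p = 7.18e-05 and 2.84e-05). Spi1, which encodes the myeloid factor PU.1, rose from 482 ± 3.17 to 786 ± 61.9 CPM (0.71 ± 0.07, adjusted p = 3.25e-05), and Rela, an NF-kB subunit, by 0.57 ± 0.07. Spi1 was also the riser with adult platelets (0.24 ± 0.07, adjusted p = 0.0365), a call lost in 6 of the 9 fits without 1 library and with upper-quartile scaling (adjusted p = 0.0505). Gfi1, a repressor of myeloid genes, rose from 1.97 ± 0.435 to 11.9 ± 0.813 CPM (2.60 ± 0.21, adjusted p = 9.65e-06). Stat3 fell from 532 ± 56.7 to 373 ± 64.1 CPM with P7 platelets (-0.51 ± 0.15, adjusted p = 0.013) and was not called with adult platelets (-0.44 ± 0.15, adjusted p = 0.0536), though it was called lower there in 8 of 20 alternatives, among them DESeq2's test (adjusted p = 0.0156). Cebpe, a granulocyte factor named after its values were seen, fell from 3.85 ± 0.255 to 1.56 ± 0.438 CPM with P7 platelets (-1.29 ± 0.22, adjusted p = 0.000674).

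Of 12 further antimicrobial and acute-phase secreted proteins 11 were tested. With P7 platelets 6 rose and 1 fell, and with adult platelets 1 rose and 1 fell, which are 63.6% and 18.2% of the 11, beside 59.2% and 26.4% of all genes. Between P7 and adult platelets 4 were higher with P7 platelets, Saa3, Cp, Slpi and C3. The cathepsin G gene Ctsg, named after its values were seen, was lower (-0.40 ± 0.11, adjusted p = 0.0206), a call lost without P7 platelet replicate 2 (adjusted p = 0.0709). Saa3, an acute-phase serum amyloid, read 5.35, 2.05 and 1.82 CPM in control, 5.45, 6.95 and 4.12 CPM with adult platelets and 36.1, 45.3 and 49.9 CPM with P7 platelets. All 3 P7 platelet libraries were above the other 6, and Saa3 rose with P7 platelets (3.83 ± 0.36, adjusted p = 2.32e-05). Cp, which encodes ceruloplasmin, rose with P7 platelets from 0.741 ± 0.159 to 6.30 ± 1.91 CPM (3.08 ± 0.32, adjusted p = 4.04e-05), and C3, complement component 3, from 959 ± 22.6 to 1903 ± 169.6 CPM (0.99 ± 0.12, adjusted p = 8.96e-05). Slpi, a secreted protease inhibitor, rose from 35.9 ± 5.67 CPM to 70.4 ± 22.9 with adult platelets (0.97 ± 0.23, adjusted p = 0.0135) and to 232 ± 26.8 with P7 platelets (2.69 ± 0.24, adjusted p = 1.49e-05). The Slpi call with adult platelets was lost without control replicate 2 or 3 (adjusted p = 0.0582 and adjusted p = 0.0547). Lyz2, the lysozyme gene, was called with P7 platelets at 0.30 ± 0.10 (adjusted p = 0.0266), lost in 4 of the 9 fits without 1 library and with upper-quartile scaling (adjusted p = 0.118). Pglyrp1, a peptidoglycan recognition protein, differed from control by -0.74 ± 0.18 with P7 platelets (adjusted p = 0.00574) and by -0.55 ± 0.18 with adult platelets (adjusted p = 0.047), the latter call being lost in 6 of the 9 fits without 1 library. The sixth riser with P7 platelets, Wfdc17, named after its values were seen, was at 0.48 ± 0.15 (adjusted p = 0.0217), and this call was lost in 4 of the 9 fits and with upper-quartile scaling (adjusted p = 0.0624).

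**Figure D4:**
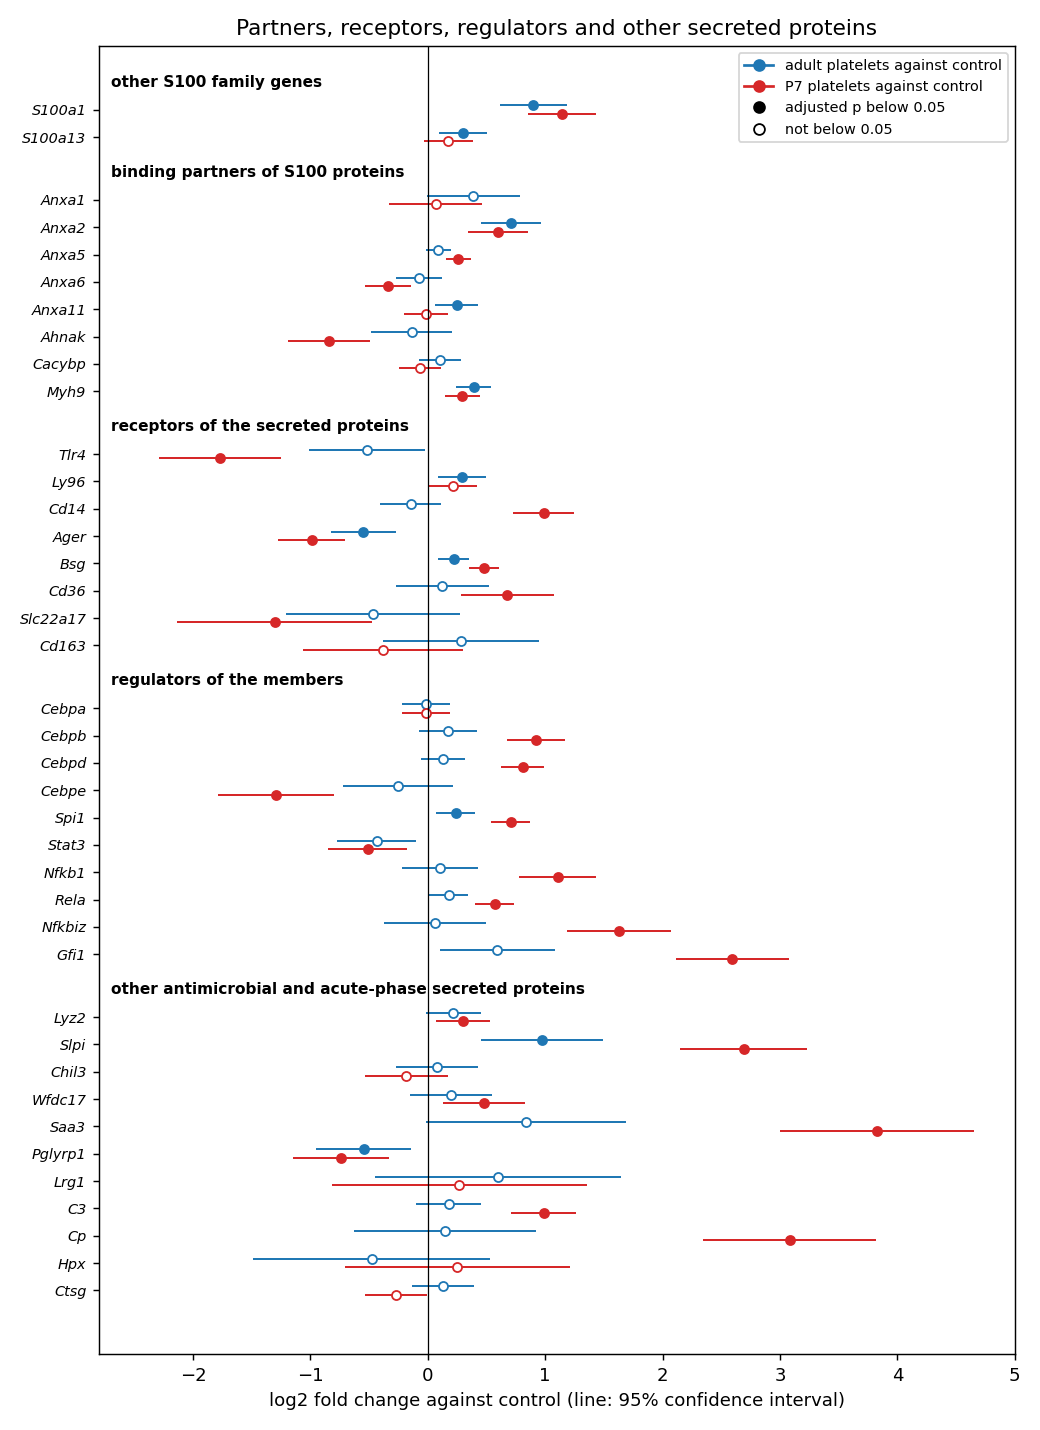
Log2 fold changes against control, with 95% confidence intervals, of the tested genes of 5 lists with adult and with P7 platelets, filled where the adjusted p was below 0.05. Saa3, Cp, Slpi and Gfi1 lie at 2.60 or more with P7 platelets, and Tlr4 is the lowest at -1.77.

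Of the neutrophil markers, 17 of 18 were tested. None was called with adult platelets in the main edgeR fit, DESeq2 or limma-voom, with 1, Cxcr2, at an unadjusted p under 0.05 in edgeR. In other edgeR fits, the replicate block called Mmp8 higher (adjusted p = 0.0108) and Cd177 lower (adjusted p = 0.0275). The Igkc term also called Mmp8 (adjusted p = 0.00782), and Cxcr2 was called without adult platelet replicate 2 (adjusted p = 0.0469). With P7 platelets 4 rose and 3 fell, 41.2% of the 17, where 59.2% of all genes were called. The 3 that fell were Padi4 (-0.94 ± 0.22), Elane (-0.62 ± 0.20) and Cd177 (-0.42 ± 0.14), named after their values were seen. Elane lost its call without control replicate 1 or P7 platelet replicate 2 or 3, and Cd177 without control replicate 2 or 3 or P7 platelet replicate 1 (adjusted p = 0.062 to 0.0795). The 4 that rose were Stfa1, Stfa2, Stfa2l1 and Stfa3, stefin A genes at means of 0.494 to 0.984 CPM with P7 platelets. They had 12 to 38 counts in the P7 platelet libraries and at most 8 in any other. They passed the count filter only through the P7 platelet group, so the direction of these 4 calls was fixed beforehand. These near-identical copies can have reads split among them, which leaves the level of each uncertain.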

How the data were processed

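The count files deposited by the authors give raw reads for each of 55367 gene symbols in 9 libraries, 3 per group, without normalisation. Per the labels' protocols, libraries were strand-marked polyA libraries (TruSeq) read as single ends. According to the submitters' processing notes, the tools were STAR 2.7.6a, fastp 0.20.1, Salmon 1.3.0 and featureCounts in Subread 2.0.1, with no role or order. What build, annotation and strand setting the counting used is not given in the sources used here. Positions and lengths come from GENCODE M21, which 53292 of the symbols match.

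The 8 genes, the related lists and the tests were chosen with earlier results of these data known. Fold changes came from edgeR 4.0.16 in R 4.3.3, by a quasi-likelihood model with 1 mean per group over the 9 libraries, TMM factors (0.882 to 1.10) and filterByExpr (minimum count 10). It left 6 residual degrees of freedom and a biological coefficient of variation of 0.114. P-values were adjusted over all 13707 genes of a comparison. As alternatives, scaling used size factors of DESeq2 or upper quartiles, filtering was dropped or raised to a mean of 50 counts, and the test was changed to DESeq2's (1.42.0), limma-voom (limma 3.58.1) or glmTreat with a fold of 1.2. Fits with a replicate block, with a term for the B cell transcript Igkc, on 2 groups at a time, without each library in turn, and without mitochondrial, erythroid and platelet transcripts were also made, and shares were taken of another denominator. CPM per kb uses the shortest principal transcript. Of each related list, the 4 genes with the smallest p with P7 platelets and then 2 with adult platelets are named. Deviations from group means correlated above 0.1 in all 3 same-numbered pairs of control and P7 platelet libraries (0.191 to 0.548), and in 2 of 3 pairs in each other comparison. The numbers were therefore taken as pairing for P7 platelets against control alone, where blocked values are given beside calls they change. This reading by comparison was chosen after the blocked calls were known. The blocked values come from a fit to all 9 libraries, so the adult platelet libraries also entered the block terms. Control replicate 3 with P7 platelet replicate 2 (0.381) and control replicate 2 with P7 platelet replicate 3 (0.267) exceeded the 0.191 of the replicate 2 pair. Pairs of replicate 1 with replicates 2 or 3 ran from -0.493 to -0.289. These correlations set replicate 1 apart and do not show that replicates 2 and 3 are paired by number. Shares were compared by exact permutation tests, and reads carry no molecular identifiers. No library was left out of the main comparisons, and no replicates were duplicates within sampling noise.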

Additional observations from a re-analysis of the deposited data

How the results depend on the processing

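Of 480 values of the 8 genes over all comparisons and alternatives, 404 kept their direction and their side of the threshold, 28 lost a call, 32 gained one and 16 changed sign. Hp and Lcn2 with P7 platelets against control, S100a10 with adult platelets against control and Hp with P7 against adult platelets were called under every alternative run, and S100a11 with P7 against adult platelets under all but glmTreat (adjusted p = 0.05). The number of the 8 genes called with adult platelets, 3, was 5 with no filter, the DESeq2 Wald test, the replicate block or the Igkc term, 1 with glmTreat or with only the 2 groups compared, and 1 to 6 without 1 library. With P7 platelets it was 5 with the replicate block, only the 2 groups or the Igkc term, and 2 to 5 without 1 library. Between P7 and adult platelets it was 1 with glmTreat and 2 to 4 without 1 library. There 1 was called higher and 3 lower with upper-quartile scaling, no filter, the DESeq2 Wald test, the replicate block or the Igkc term. The cause of these shifts was not tested, except that glmTreat asks for a fold above 1.2. Genes called fell to 1120, 5185 and 2552 with glmTreat in the 3 comparisons, and with adult platelets ranged from 2031 (without control replicate 2) to 3774 without 1 library, with 2207 without control replicate 3.

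Values that changed sign were those of Hp with adult platelets (-0.0143 with upper-quartile scaling, -0.0695 with limma-voom, -0.0296 with the replicate block, -0.23 to 0.31 without 1 library), S100a9 with adult platelets (-0.0209 to 0.69), S100a6 with P7 platelets (-0.09 with upper-quartile scaling, -0.0028 with no filter, -0.08 to 0.0895 without 1 library) and, between P7 and adult platelets, S100a4 (-0.15 to 0.0069), S100a8 (-0.26 to 0.17) and S100a9 (-0.44 to 0.26). None of these was called. The difference in the summed share of the neutrophil markers between P7 platelets and control, -0.0165 percentage points, was -0.0137 with erythroid and mitochondrial transcripts out of the denominator. Upper-quartile scaling moved the median of all genes with P7 platelets against control to -0.12, and 39.5% of calls were then higher, against 50.5%; with P7 against adult platelets it was 37.2% against 49.9%, and with adult platelets 45.4% against 54.4%. Same-numbered libraries had correlations of -0.178 to 0.548 over 9 pairs, of which 7 were above 0.1. Those of differently numbered libraries of different groups were -0.601 to 0.498. Pairing was taken to need every pair of a comparison above 0.1, which the comparisons with adult platelets did not meet, at -0.071 and -0.178 for replicate 3. The replicate block called 4228, 8565 and 5965 genes, against 3617, 8111 and 5424 without it.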
